A study of Homo sapiens with 16 samples.

Results

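Chromosome 18 was examined in Hi-C contact maps of K562 cells as a gene-poor chromosome beside chromosomes 17, 19 and 20, which are of like size. Its members were all 20 kb bins of chromosome 18, on build hg19, that held signal in all 8 matrices of the second sequencing run. These were 3717 of the chromosome's 3904 bins, out of 137198 such bins over chromosomes 1 to 22 and X. Chromosome 17 had 3663 such bins, chromosome 19 had 2396 and chromosome 20 had 2891.

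K562 is an established human leukaemia line. Nuclei from cells fixed with 2% formaldehyde were digested with the restriction enzyme HindIII for 0.25, 1, 3 or 12 h, and the cut ends were labelled with biotin, ligated inside the nuclei and sequenced as pairs. Each of the 4 digestion times had 2 replicate libraries, and no untreated or undigested control is among the groups. All groups shared the cell line, the fixation and the enzyme and differed in digestion time. Each library was read in 2 runs, and the deeper second run gave the values below unless the first is named. The labels do not say whether replicates came from separate cultures, so p-values measure the spread between these libraries only.

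In interphase nuclei each chromosome folds mostly upon itself, which makes contacts within a chromosome (cis) far more common than contacts between chromosomes (trans). Stretches of active, gene-rich chromatin and stretches of inactive chromatin each prefer their own kind, and Hi-C shows this as a pair of compartments. Human chromosome 18 is known for carrying few genes and for lying toward the edge of the nucleus in many cell types, whereas chromosome 19 is gene-dense and lies toward the interior.

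The gene counts of RefSeq on assembly GRCh38.p14 fitted the label. Chromosome 18 had 270 protein-coding genes, rank 2 from the fewest among the 23 chromosomes, against 1169 on chromosome 17, 1451 on chromosome 19 and 537 on chromosome 20. HindIII cuts at the letters AAGCTT, which read the same on both strands, and a Hi-C contact can only start at such a site. The site occurred in 24 of 365 RefSeq promoters of chromosome 18, each of 300 bases, a share of 6.58%. Chromosome 17 had it in 3.85% of its promoters, chromosome 19 in 4.33% and chromosome 20 in 2.54%, beside 5.30% of all 22132 promoters. A match is a description of these windows and says nothing of cutting in the cells. Of 14 chromosome 18 genes listed for this purpose, SETBP1 and TCF4 had a promoter with the site. SETBP1 encodes a protein that binds SET, and TCF4 encodes a basic helix-loop-helix transcription factor. One promoter of each is shown to give the site in its surroundings, 5′ to 3′ on the gene's strand, with the HindIII site in capitals. The SETBP1 promoter lies at chr18:44680638-44680937 on the plus strand with the site starting at base 50, and the TCF4 promoter at chr18:55320886-55321185 on the minus strand with the site starting at base 82, both on GRCh38.p14.
SETBP1: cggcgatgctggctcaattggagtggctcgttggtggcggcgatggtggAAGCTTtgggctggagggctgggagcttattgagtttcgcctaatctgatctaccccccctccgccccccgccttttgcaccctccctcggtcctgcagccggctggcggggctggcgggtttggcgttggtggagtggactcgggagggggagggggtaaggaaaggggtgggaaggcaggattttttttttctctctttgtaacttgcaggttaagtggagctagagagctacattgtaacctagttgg
TCF4: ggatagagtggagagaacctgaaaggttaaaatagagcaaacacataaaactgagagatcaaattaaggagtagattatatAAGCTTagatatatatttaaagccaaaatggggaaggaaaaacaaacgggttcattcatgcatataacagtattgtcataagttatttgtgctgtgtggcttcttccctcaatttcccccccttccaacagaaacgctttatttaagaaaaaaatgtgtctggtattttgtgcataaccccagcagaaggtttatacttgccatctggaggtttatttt

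The second-run libraries held 62777251 to 176412222 contacts, of which 1947043 to 5573569 had at least 1 end on chromosome 18. Depth rose with digestion time (Spearman's rho 0.78, exact permutation p = 0.0349, n = 8; Pearson's r 0.81, exact permutation p = 0.0183), so depth and time were not independent. The part of depth in the trends below was tested by thinning for compartment strength only, and there with bins chosen from unthinned libraries. Contacts between chromosomes 9 and 22, which are joined by the BCR-ABL1 fusion in K562, stood at a log2 observed over expected of 1.53 ± 0.036 (SD, n = 8), rank 2 among all pairs of chromosomes.

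Chromosome 18 was not evenly covered. Off-diagonal contacts per 100 kb bin were set against the genome median of each library. The place where coverage drops depended on the rule used to find it, and 3 rules were tried in turn on the same data. The largest difference of medians between adjacent 5 Mb windows lay at 12.9 Mb (log2 step -1.28, rank 10 of 23 chromosomes by size). With 15 Mb windows it lay at 37.5 Mb (log2 step -1.04, rank 8). The last rule, the split into 2 parts with the least deviation from each part's median, fell at chr18:39600001 (hg19; log2 step -0.98, rank 4). This last split is used below. It was adopted after a drop near that place had been seen in the profile and after contact peaks ending beside it were known, so its nearness to those peaks is no independent observation, and comparisons of its sides are given as values with no test.

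On the proximal side, which holds the short arm and the start of the long arm, relative coverage was 1.49 ± 0.014, and on the distal side 0.755 ± 0.0078 (SD, n = 8). The drop was 1.98-fold, with a log2 step between -0.99 and -0.97 in the 8 libraries. Within 1 Mb of the point the drop was already 1.89-fold. With contacts to other chromosomes only, the log2 step was -1.12 ± 0.018. The same rule found its split on chromosome 17 at a log2 step of 0.88, on chromosome 19 at 1.24 and on chromosome 20 at 0.25. The proximal side was not uniform, since the window from 10 to 15 Mb stood at 0.817 and that from 15 to 20 Mb at 0.950. The latter holds the 3.08 Mb gap of absent bins at chr18:15420001-18500000, and 19 of its bins of 100 kb were left.

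**Figure D1:**
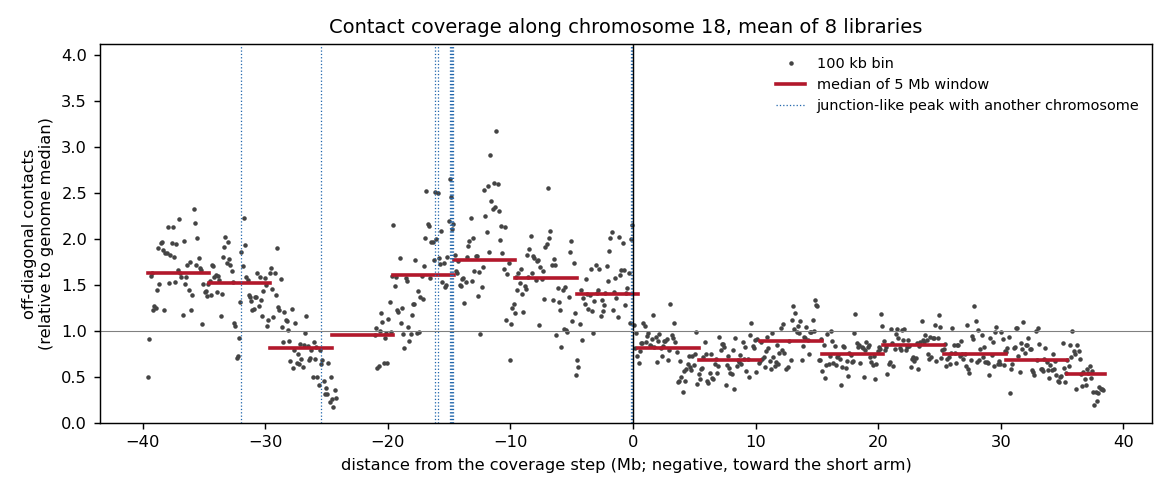
Off-diagonal contacts of each 100 kb bin of chromosome 18 relative to the genome median (vertical axis, geometric mean of 8 libraries) against distance in Mb from the coverage step; red bars are medians of 5 Mb windows and dotted lines are the peaks of junction-like contacts with other chromosomes. Most bins left of the step lie above 1 except around the gap, and window medians right of it lie between 0.534 and 0.888.

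Sharp contact peaks joined chromosome 18 to other chromosomes. Pairs of 1 Mb windows with over 10 times the expected contacts formed 10 clusters with 5 chromosomes, 1, 3, 6, 20 and 21. The same rule gave 11 clusters on chromosome 17, 4 on chromosome 19 and 10 on chromosome 20. The cluster with the most contacts in a 100 kb pair joined chr18:24700001-24800000 to chr1:107300001-107400000, with 1347 contacts where 2.17 were expected. Its libraries held 167 and 77 contacts (0.25 h), 149 and 116 (1 h), 201 and 154 (3 h), then 278 and 205 (12 h). All 8 libraries carried it, at 1.39 ± 0.12 CPM, contacts scaled to the library total (SD, n = 8).

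Other peaks in the same stretch joined chr18:24600001-24700000 to chr6:135800001-135900000 with 772 contacts against 1.95 expected. A further peak joined chr18:23400001-23500000 to chr1:55100001-55200000 with 740 contacts against 1.52 expected. At the coverage step, chr18:39500001-39600000 met chr1:142800001-142900000 with 689 contacts against 9.89 expected, between 45 and 130 in each library. The neighbouring bin chr18:39400001-39500000 met chr3:75700001-75800000 with 159 contacts against 1.48 expected. The partner of the chromosome 1 peak lay 0.31 Mb from a gap of absent bins, and the partner of a chromosome 20 peak at chr18:24900001-25000000 lay 0.17 Mb from one. The one peak with chromosome 21, at chr18:14100001-14200000, held 517 contacts against 0.294 expected. Its libraries held 95 and 76 (0.25 h), 88 and 38 (1 h), 79 and 66 (3 h), then 34 and 41 (12 h). Scaled to the library totals these were 0.832 and 1.21 CPM (0.25 h), 0.727 and 0.482 (1 h), 0.544 and 0.607 (3 h), then 0.193 and 0.267 (12 h). Both 12 h libraries lay below all others (rho -0.88, exact permutation p = 0.0103, 0.103 adjusted over the 10 clusters, n = 8). Its ends lay 1.27 Mb and 1.01 Mb from a gap. What gives rise to these peaks was not tested.

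Contacts crossing the step within chromosome 18 reached 0.734 ± 0.010 of the expectation for their distance (SD, n = 8), against a median of 0.989 over all positions of the chromosome. This value rests on the chosen place. At 37.5 Mb, the split of the second rule, it was 1.03 ± 0.0081, and at 12.9 Mb 1.09 ± 0.021 (SD, n = 8), while the lowest value of the chromosome, 0.693, lay at 43.5 Mb. Pairs of 1 Mb windows above 3 times expectation held 4.49% ± 0.056 of the trans contacts of chromosome 18 (SD, n = 8). They held 25.4% of its contacts with chromosome 3 and 14.9% of those with chromosome 1.

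The share of chromosome 18 contacts that stayed within the chromosome, the cis share, fell with digestion time. It was 79.9% and 79.7% (0.25 h), 79.0% and 78.6% (1 h), 78.8% and 78.1% (3 h), then 75.9% and 75.8% (12 h). The libraries of 1 h and 3 h overlapped, and both 12 h libraries lay below all others. The fall from 0.25 to 12 h was 4.00 percentage points (rho -0.93, exact permutation p = 0.00317, 0.00317 after Benjamini-Hochberg adjustment over 23 chromosomes; Pearson's r -0.93, exact permutation p = 0.00159, n = 8). Pearson's r was -0.93 without the 0.25 h libraries and -0.91 without those of 12 h. The fall was called in 100% of the 23 chromosomes and is no feature of chromosome 18. With contacts inside single 20 kb bins left out, the trend missed the threshold (rho -0.73, exact permutation p = 0.0548, 0.127 adjusted).

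Chromosome 18 kept more of its contacts than the chromosomes of like size. Its cis share of 78.3% ± 1.59 (SD, n = 8), rank 14 from the highest of 23, was above that of chromosome 17 by 5.96 points ± 0.33, of chromosome 19 by 4.24 ± 0.69 and of chromosome 20 by 4.84 ± 0.12. It was higher in 8 of 8 libraries in each comparison (exact sign-flip permutation test, p = 0.0078, the smallest this design allows, 0.0082 adjusted over 22 chromosomes). A difference in one direction or the other was called from all 22 chromosomes. The size depended on the contacts counted. The 3 differences were 3.40, 2.85 and 2.50 points with the deposited signal, 7.61, 7.64 and 5.96 with contacts inside single bins left out, and 5.38, 4.19 and 4.78 with junction-like pairs left out, each with an adjusted exact sign-flip permutation p from 0.0078 to 0.0082. The gap to chromosome 19 widened from 3.48 points at 0.25 h to 5.14 at 12 h (rho 0.93, exact permutation p = 0.00317, 0.00582 adjusted, n = 8), but turned with contacts inside single bins left out (rho -0.88, 0.0378 adjusted) and lost its call with the deposited signal (rho 0.44, 0.330 adjusted). The gap to chromosome 17 went from 5.62 to 6.35 points (adjusted exact permutation p = 0.0709, 0.0494 with times permuted within replicate numbers and 0.0140 without 1 h replicate 2). The gap to chromosome 20 went from 4.80 to 4.80 points (adjusted exact permutation p = 0.946). That trend was called in opposite directions by alternatives, as a fall with contacts inside single bins left out (rho -0.88, 0.0378 adjusted) and as a rise with the deposited signal (rho 0.83, 0.0291 adjusted).

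**Figure D2:**
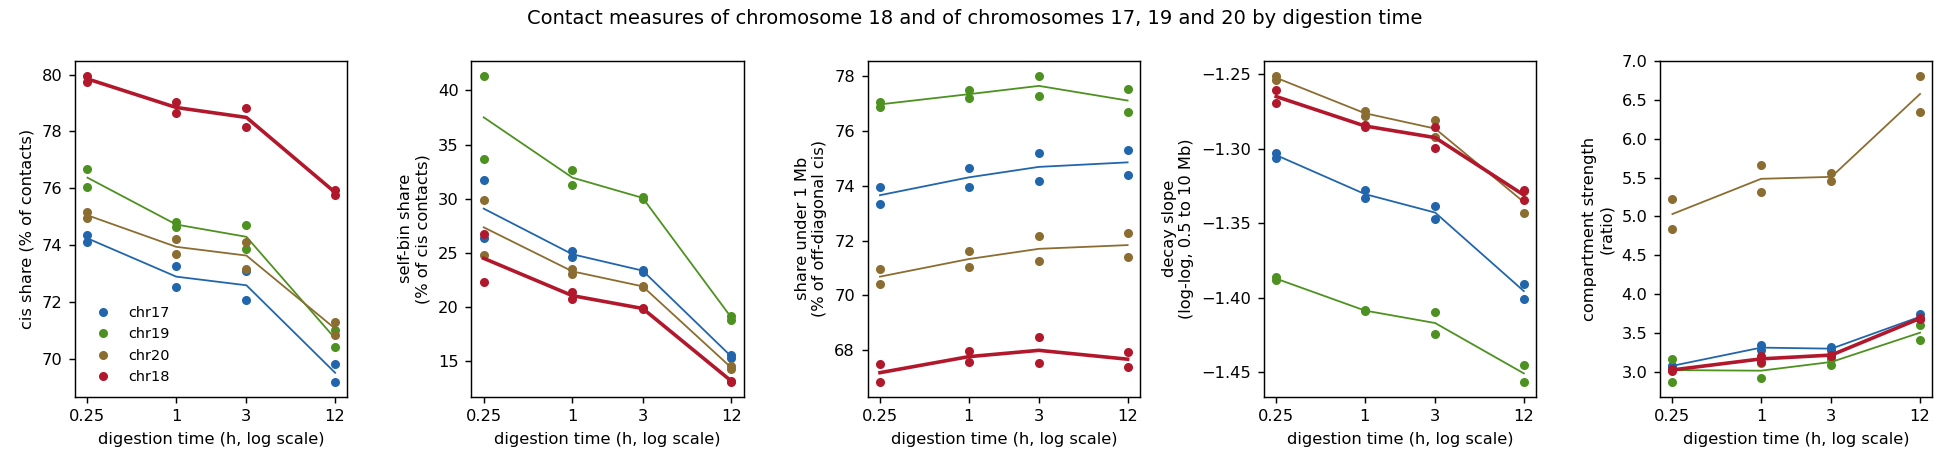
Cis share, self-bin share, share of off-diagonal cis contacts under 1 Mb, decay slope and compartment strength (vertical axes) of chromosomes 18, 17, 19 and 20 against digestion time in hours on a log scale; points are libraries and lines join the means of 2 replicates. Chromosome 18 has the highest cis share and the lowest self-bin and under-1-Mb shares of the 4 in the mean of every time, and its compartment strength lies near those of chromosomes 17 and 19 and below that of chromosome 20.

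The self-bin share, the part of cis contacts whose ends both lie in one 20 kb bin, fell more steeply. The share on chromosome 18 was 22.3% and 26.7% (0.25 h), 20.8% and 21.3% (1 h), 19.8% and 19.9% (3 h), then 13.2% and 13.1% (12 h). The times did not overlap, and the replicates of 0.25 h lay further apart than those of any later time. The fall was 11.3 points (rho -0.98, exact permutation p = 0.00079, the smallest this design allows and equal after adjustment; Pearson's r -0.93, exact permutation p = 0.00079, n = 8). Pearson's r was -0.95 without the 0.25 h libraries and -0.82 without those of 12 h. A fall was called in 100% of 23 chromosomes.

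Pooled over contacts, chromosome 18 had a lower self-bin share than its neighbours in size. The difference was -3.54 points ± 0.93 from chromosome 17, -9.99 ± 2.92 from chromosome 19 and -2.09 ± 0.65 from chromosome 20 (SD, n = 8), lower in 8 of 8 libraries each time (exact sign-flip permutation p = 0.0078, 0.0082 adjusted). A difference was called from all 22 other chromosomes. Some went the other way, as chromosome 18 was above chromosome 4 by 1.55 points and above chromosome X by 0.897. With bins of 100 kb the differences from chromosomes 17 and 20 were -5.67 and -3.29 points. Medians over single 20 kb bins gave another order, which was not tested. There chromosome 18 exceeded chromosomes 19 and 20 and stayed below chromosome 17. Its median bin share of 16.6% (0.25 h) stood beside 14.5% for chromosome 19, 15.9% for chromosome 20 and 16.7% for chromosome 17. The 12 h medians were 9.68% for chromosome 18, then 9.27%, 9.58% and 10.3% for the others in that order. All 3 gaps in pooled points shrank with digestion, while the share itself fell on every chromosome. From 0.25 h to 12 h chromosome 17 went from 26.4% and 31.8% to 15.6% and 15.3%. Chromosome 19 went from 33.7% and 41.3% to 19.2% and 18.8%, and chromosome 20 from 24.8% and 29.9% to 14.5% and 14.3%. Ratios between chromosomes were not tested, so a smaller gap in points does not show that the chromosomes became more alike in proportion. The gap to chromosome 19 went from -13.0 points at 0.25 h to -5.86 at 12 h, that to chromosome 17 from -4.59 to -2.27 and that to chromosome 20 from -2.86 to -1.23 (rho 0.98, adjusted exact permutation p = 0.00218 for each, n = 8).

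In windows of 5 Mb along chromosome 18 the ratio of the mean self-bin share at 0.25 h to that at 12 h ran from 1.76, at 25 to 30 Mb, to 1.97, at 75 Mb to the end. The proximal side had a share 0.929 points ± 0.076 above the distal side, higher in 8 of 8 libraries. With the split at 37.5 Mb the gap was 1.06 ± 0.12, and at 12.9 Mb it was 1.87 ± 0.46, so its size rests on the split. Single bins were compared with limma on the log2 odds of self contacts. Of 3716 bins tested, 2458 were higher at 0.25 h than at 12 h and 4 were lower at an adjusted p under 0.05, or 66.1% and 0.108%. Over all 136847 bins these shares were 64.6% and 0.153%, so the count of chromosome 18 lay near the background, and its median log2 difference of 0.80 beside 0.81 over all bins did too. The 63 bins with no self contact in any library were 1.70% of the bins of chromosome 18, beside 3.36% on chromosome 17, 5.57% on chromosome 19, 3.85% on chromosome 20 and 2.26% over all.

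The bin with the largest rise of the self share toward short digestion was chr18:55520001-55540000. Of the contacts within chromosome 18 with an end in it, 15.3% and 24.7% were self contacts at 0.25 h and 1.83% and 1.46% at 12 h (log2 odds higher by 3.79 ± 0.27 SE, limma adjusted p = 5.7e-05). The next were chr18:29720001-29740000, with 10 and 14 self contacts at 12 h but 68 and 92 at 0.25 h, and chr18:540001-560000, with 31 and 23 against 153 and 147. In these 3 bins the 1 h and 3 h libraries lay between those of 0.25 h and 12 h. The 3 bins with the largest fall held at most 10 self contacts in any library. With a pseudocount of 5 in place of 0.5, 2945 bins of chromosome 18 were called higher and 0 lower, so these 3 calls were lost. Over all bins 79.0% were called with that pseudocount. At chr18:24920001-24940000 the self share was 0% in both 0.25 h libraries, from 0 contacts, against 0.338% and 0.300% at 12 h (limma adjusted p = 0.0484), with 0.148% and 0.427% at 1 h. At chr18:65840001-65860000 it was 0.234% and 0% against 0.574% and 1.34% (limma adjusted p = 0.0236), with 1.05% and 1.92% at 1 h. At chr18:45600001-45620000 it was 0.690% and 0% against 1.09% and 1.73% (limma adjusted p = 0.0477), with 2.41% and 1.35% at 1 h. In all 3 bins the library with the highest share was one of 1 h.

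Chromosome 18 had a smaller share of short-range contacts than chromosomes 17, 19 and 20, with no adjustment for chromosome length. Of its off-diagonal cis contacts, 67.7% ± 0.48 (SD, n = 8) spanned under 1 Mb, a difference of -6.72 points ± 0.32 from chromosome 17, -9.61 ± 0.28 from chromosome 19 and -3.73 ± 0.30 from chromosome 20. It was lower in 8 of 8 libraries in each comparison (exact sign-flip permutation p = 0.0078, also after adjustment). A difference was called from all 22 other chromosomes, so the call does not set these 3 apart. Some went the other way, as chromosome 18 was above chromosome 4 by 6.84 points and above chromosome X by 7.28. The share under 1 Mb was 67.2% ± 0.46 at 0.25 h and 67.7% ± 0.38 at 12 h (SD, n = 2), and no trend was called (rho 0.29, exact permutation p = 0.513, 0.656 adjusted; Pearson's r 0.42, exact permutation p = 0.297, n = 8). Pearson's r was -0.13 without the 0.25 h libraries and 0.69 without those of 12 h. A rise of this share was called in 0% of 23 chromosomes.

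Split into 5 distance classes, chosen after the data were seen, the trend of chromosome 18 was called in 1 of them. From 200 kb to under 1 Mb the share of off-diagonal cis contacts of chromosome 18 rose from 26.5% ± 0.060 at 0.25 h to 28.2% ± 0.014 at 12 h (SD, n = 2; rho 0.98, exact permutation p = 0.00079, 0.00537 adjusted over 5 distance classes and 23 chromosomes). This rise was called in 95.7% of 23 chromosomes. A fall from 1 to under 10 Mb was called in 16 of 23 chromosomes, and a rise at 30 Mb or more in 1 of 23. From 1 to under 10 Mb the share was 24.6% ± 0.30 at 0.25 h and 23.7% ± 0.25 at 12 h (SD, n = 2; rho -0.83, exact permutation p = 0.0198, 0.0557 adjusted). At 30 Mb or more it was 1.61% ± 0.026 and 1.84% ± 0.033 (SD, n = 2; rho 0.78, exact permutation p = 0.0349, 0.0669 adjusted). At that distance chromosome 18 exceeded chromosome 17 by 0.523 points ± 0.018, chromosome 19 by 0.878 ± 0.027 and chromosome 20 by 0.634 ± 0.030, in 8 of 8 libraries (exact sign-flip permutation p = 0.0078). Chromosomes 19 and 20 are shorter and offer fewer such pairs, and this was not adjusted for.

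The decay slope, the slope of log contact frequency on log distance from 0.5 to 10 Mb, steepened with digestion time on chromosome 18. It was -1.27 and -1.26 (0.25 h), -1.29 and -1.28 (1 h), -1.30 and -1.29 (3 h), then -1.33 and -1.33 (12 h). The times did not overlap (rho -0.98, exact permutation p = 0.00079, 0.00083 adjusted; Pearson's r -0.95, exact permutation p = 0.00079, n = 8). Pearson's r was -0.93 without the 0.25 h libraries and -0.91 without those of 12 h. A steepening was called in 100% of 23 chromosomes. From 1 to 30 Mb the trend of chromosome 18 turned (rho 0.78, exact permutation p = 0.0349, 0.140 adjusted).

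The slope of chromosome 18 was shallower than that of chromosome 17 by 0.050 ± 0.010 and than that of chromosome 19 by 0.12 ± 0.0037 (SD, n = 8), in 8 of 8 libraries (exact sign-flip permutation p = 0.0078, 0.0107 adjusted). From chromosome 20 it differed by -0.0056 ± 0.0075, with values from -0.016 to 0.0086 (exact sign-flip permutation p = 0.0859, 0.0900 adjusted, n = 8). From 1 to 30 Mb the difference from chromosome 17 was 0.078, and that from chromosome 20 turned to 0.053 and was called (adjusted exact sign-flip permutation p = 0.00905). The gap to chromosome 17 widened with time (rho 0.93, adjusted exact permutation p = 0.00635), but the call was lost in the first run (rho 0.73, 0.241 adjusted) and the sign turned from 1 to 30 Mb (rho -0.68, 0.0956 adjusted). The difference from chromosome 19 had no called trend (rho -0.24, adjusted exact permutation p = 0.614, n = 8), but a fall was called from 1 to 30 Mb (rho -0.88, 0.0162 adjusted). The difference from chromosome 20 went from -0.013 at 0.25 h to 0.0047 at 12 h (rho 0.88, adjusted exact permutation p = 0.0162, n = 8), which missed the threshold without either 12 h library (0.0599) and in the first run (0.218), and turned from 1 to 30 Mb (rho -0.93, 0.0162 adjusted).

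**Figure D3:**
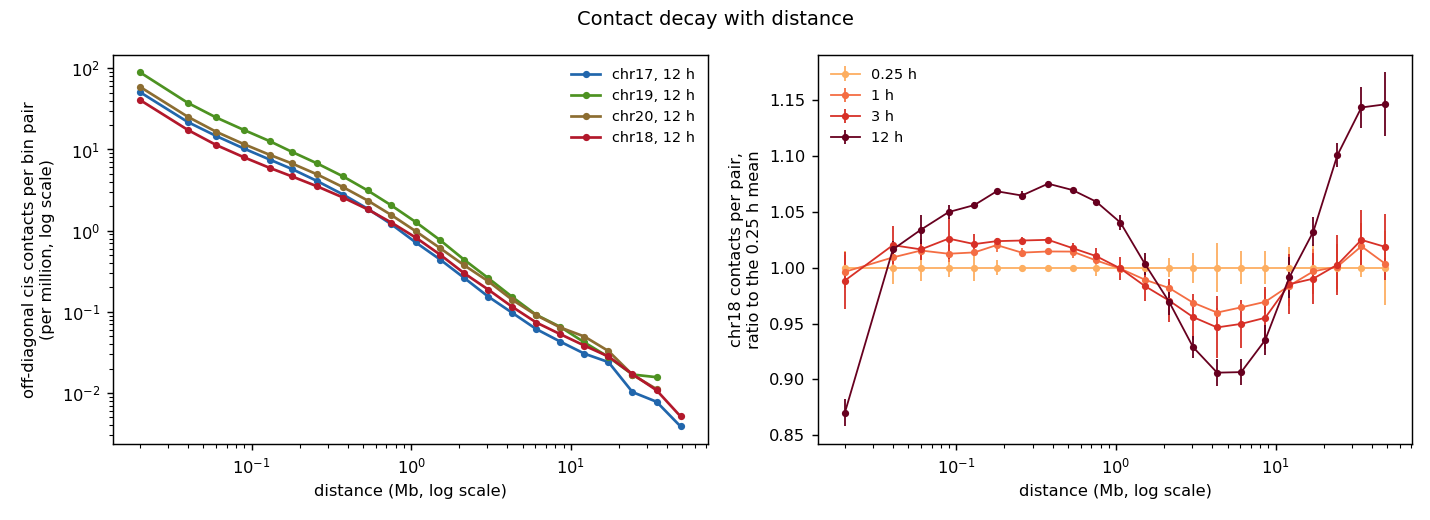
Left, off-diagonal cis contacts per possible pair of 20 kb bins, scaled to the chromosome's total of such contacts (log scale), against distance in Mb (log scale) at 12 h for chromosomes 18, 17, 19 and 20. Right, the values of chromosome 18 at each time divided by the 0.25 h mean, with bars of 1 SD of 2 libraries; between 0.2 and 1 Mb the 12 h curve lies above 1, between 3 and 9 Mb below, and beyond 30 Mb above again.

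Compartments were read from the first eigenvector of the balanced cis matrix at 500 kb, summed over all libraries. Of 150 bins, 82 (54.7%) fell in class 1, the class with relatively more contacts to gene-rich chromosomes, and 68 in class 2, with 24 switches along the chromosome. The gene-rich ratio was the log2 ratio of contacts with chromosomes 17, 19 and 22 to contacts with chromosomes 4 and 13. It set the sign of the eigenvector but did not otherwise enter it. The eigenvector followed this ratio at a correlation of 0.88 across bins, a description that carries no test. The short arm was 74.2% class 1, the long arm from the gap to the step 41.9%, and the distal side 53.2%. The longest runs were class 1 from chr18:6500001-14500000 and class 2 from chr18:34500001-42500000, each of 16 bins, and the second spans the coverage step. The distal end, chr18:71500001-78000000, was class 1.

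Compartment strength was the contact enrichment within the 20% of bins at each end of the eigenvector, over that between the ends. This strength rose with digestion on chromosome 18. It was 3.01 and 3.04 (0.25 h), 3.13 and 3.21 (1 h), 3.21 and 3.22 (3 h), then 3.70 and 3.68 (12 h). The times did not overlap, and the largest step lay between 3 and 12 h (rho 0.98, exact permutation p = 0.00079, 0.00183 adjusted; Pearson's r 0.92, exact permutation p = 0.00079, n = 8). Pearson's r was 0.93 without the 0.25 h libraries and 0.94 without those of 12 h. A rise was called in 91.3% of 23 chromosomes. In the shallower first run alone it was not called (rho 0.54, exact permutation p = 0.190, 0.231 adjusted), whereas it was called in libraries thinned to equal depth (rho 0.98, exact permutation p = 0.00079, 0.00203 adjusted). In both settings the extreme bins still came from the unthinned sum of all second-run libraries, in which those of 12 h were the deepest. Thinning did not change that choice of bins, so the part of depth in the choice was not tested.

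The rise of chromosome 18 lay inside the extreme bins of class 1 and between those of the classes. The values here cover these extreme bins only. Observed over expected between the classes fell from 0.493 ± 0.00074 to 0.420 ± 0.0024 (SD, n = 2), with rho -0.93 (exact permutation p = 0.00317, n = 8). Inside the extreme bins of class 1 the value rose from 1.64 ± 0.037 to 1.76 ± 0.028 (SD, n = 2), with rho 0.98 (exact permutation p = 0.00079, n = 8). Inside the extreme bins of class 2 the value was 1.34 ± 0.022 and 1.33 ± 0.020 (SD, n = 2), with rho -0.24 (exact permutation p = 0.586, n = 8). These 3 p-values were not adjusted. On chromosomes 17, 19 and 20, in that order, rho was 0.88, 0 and 0.44 inside class 1 and 0.63, 0.88 and 0.88 inside class 2. Between the classes it was -0.78, -0.54 and -0.88 (n = 8).

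These strengths come from balanced matrices, a choice made after the data were seen, and the order of chromosomes 17, 18 and 19 depended on it. The strength of chromosome 18, 3.27 ± 0.27 (SD, n = 8), was different from that of chromosome 20 by -2.38 ± 0.40 in 8 of 8 libraries (exact sign-flip permutation p = 0.0078, 0.0095 adjusted). The size depended on the bins used. With all bins of each class chromosome 18 stood at 1.83 ± 0.059 and chromosome 20 at 1.86 ± 0.064, a difference of -0.0300 (adjusted exact sign-flip permutation p = 0.0101, n = 8). The gap in the extreme bins grew from -2.01 to -2.89 (rho -0.83, adjusted exact permutation p = 0.0364, n = 8), and missed the threshold at equal depth (0.0698 adjusted), in the first run (0.319), with both runs added (0.0753), with all bins (0.419) and without any 1 of the libraries of 0.25 h or 12 h (adjusted exact permutation p from 0.0599 to 0.122). From chromosome 19 the difference was 0.107 ± 0.14, from -0.130 to 0.290 (exact sign-flip permutation p = 0.0547, 0.0602 adjusted, n = 8). It turned to -0.906 with contacts not balanced, and without 0.25 h replicate 2 it was 0.141 (adjusted exact sign-flip permutation p = 0.0181) and in bins of smaller size 0.170 (0.0095 adjusted). From chromosome 17 it was -0.0753 ± 0.068, lower in 7 of 8 libraries (exact sign-flip permutation p = 0.0156, 0.0181 adjusted), and in the first run the call was lost (-0.118, 0.253 adjusted). That difference also turned, to 0.397, with contacts not balanced, and to 0.177 in bins of smaller size. On chromosome 17 the first eigenvector followed the gene-rich ratio, without chromosome 17 itself, less closely than the second (correlations 0.597 and 0.655). With the second the difference was -0.0690 (adjusted exact sign-flip permutation p = 0.368).

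**Figure D4:**
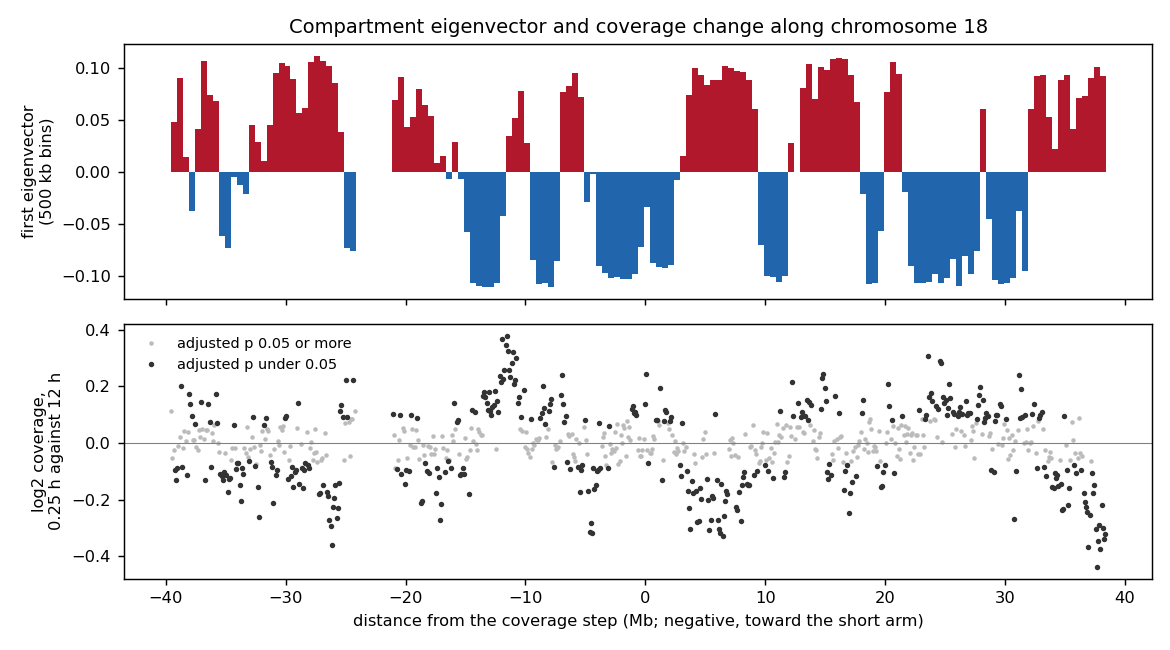
Top, the first eigenvector of 500 kb bins of chromosome 18, with class 1 in red and class 2 in blue; bottom, the log2 difference in coverage of 100 kb bins between 0.25 h and 12 h, with bins at an adjusted p under 0.05 in black. Both are plotted against distance in Mb from the coverage step; the lowest differences lie at the distal end and the highest to the left of the step.

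Which chromosome 18 bins were seen more at short digestion was tested on off-diagonal contacts per 100 kb bin with limma. Contacts of a bin were scaled to the sum over all tested bins, so CPM of these bins is not the CPM of the peaks above. Of 748 bins, 176 (23.5%) were higher and 204 (27.3%) lower at 0.25 h than at 12 h at an adjusted p under 0.05. Over all 27778 bins these shares were 27.2% and 37.9%. The median log2 difference of chromosome 18 was -0.01, beside -0.02 over all bins, -0.23 on chromosome 17, -0.41 on chromosome 19 and -0.20 on chromosome 20. Under another scaling, median-of-ratios size factors, the split of chromosome 18 was 241 higher and 163 lower. Over all bins 66.5% were called in either direction under that scaling, beside 65.1% in the main fit. Their split by direction is not given, so the turn cannot be set against the background. With contacts to other chromosomes only, 173 bins of chromosome 18 were called, and in the first run 176, in place of 380. Over all bins 32.2% and 37.4% were called in these 2 settings, beside 65.1% in the main fit. Without 12 h replicate 2, which leaves 1 library at that time, the median log2 difference of chromosome 18 was -0.005. Class 1 bins of chromosome 18 were higher in 72 (17.6%) and lower in 154 (37.6%) of 410, and class 2 bins higher in 104 (30.8%) and lower in 50 (14.8%) of 338. The share lower in class 1 lay near the 37.9% over all bins. All bins were not split by class, so the difference between classes cannot be set against a background. The medians were -0.04 in class 1 and 0.03 in class 2. By side of the coverage step the counts were 87 (23.8%) higher and 99 (27.1%) lower of 365 proximal bins, and 89 (23.2%) higher and 105 (27.4%) lower of 383 distal bins.

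The 5 bins with the largest rise toward short digestion all lay within chr18:27600001-28600000. In chr18:28000001-28100000 coverage was 89.1 and 93.3 CPM (0.25 h), 88.8 and 84.8 (1 h), 82.9 and 86.8 (3 h), then 69.1 and 71.0 (12 h) (log2 higher at 0.25 h by 0.38 ± 0.032 SE, limma adjusted p = 1.7e-07). The 12 h libraries lay below all others there. The other 4 bins, starting at chr18:27600001, 27900001, 28100001 and 28500001, were higher by 0.37, 0.35, 0.33 and 0.32 on the log2 scale. Of the 5 bins, 3 were in class 1 and 2 in class 2, around the class switch at chr18:28000001.

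The 5 bins with the largest fall toward short digestion were all in class 1, and 4 of them lay beyond chr18:76500001. In chr18:77200001-77300000 coverage was 6.06 and 5.95 CPM (0.25 h), 6.19 and 6.45 (1 h), 6.41 and 6.67 (3 h), then 8.15 and 8.13 (12 h) (log2 lower at 0.25 h, -0.44 ± 0.052 SE, limma adjusted p = 2.7e-06). Both 12 h libraries stood above all others. The bins starting at chr18:77500001, 76500001 and 77300001 were at -0.37, -0.37 and -0.35. The remaining bin, chr18:13400001-13500000, was at -0.36.

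Trans contacts of chromosome 18 were set against those expected from the trans totals of both chromosomes. Its preferred partners were chromosome 21, with a log2 observed over expected of 0.39 ± 0.014, chromosome 20 with 0.31 ± 0.019 and chromosome 19 with 0.28 ± 0.0099 (SD, n = 8). Next came chromosome 3 with 0.23 ± 0.0095 and chromosome 16 with 0.21 ± 0.019. The lowest were chromosome 2 with -0.23 ± 0.017, chromosome 22 with -0.21 ± 0.017 and chromosome 4 with -0.19 ± 0.0087. The libraries' ranges of chromosomes 22 and 2 overlapped, as did those of chromosomes 22 and 4 and of chromosomes 20 and 19, whereas chromosome 21 lay above chromosome 20 in all 8 libraries. Chromosome 17 stood at 0.04 ± 0.0073. The sizes depended on the scaling. With the deposited signal chromosome 21 stood at 0.56, chromosome 20 at 0.23, chromosome 19 at 0.13 and chromosome 22 at -0.07. With expectation from the product of totals chromosome 19 stood at 0.19, and chromosome 17 was below 0 under both. Of 22 partners, 11 were above 0 in 8 of 8 libraries and the other 11 below 0 in 8 of 8.

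Junction-like pairs moved several of these values. With them left out genome-wide, chromosome 21 stood at 0.51 ± 0.015, chromosome 20 at 0.33 ± 0.020, chromosome 16 at 0.30 ± 0.015 and chromosome 19 at 0.30 ± 0.0089 (SD, n = 8). Chromosome 3 went from 0.23 to -0.08 ± 0.0054, and its rank from 4 to 15. Chromosome 1 went from 0.05 to -0.11 ± 0.016. Chromosome 22 went from -0.21 to 0.12 ± 0.013, with 1.08% of its contacts with chromosome 18 in such pairs. This rise was not particular to chromosome 18. With chromosome 22, chromosome 17 went from 0.80 to 0.95, chromosome 19 from 0.71 to 0.99 and chromosome 20 from 0.42 to 0.67. The cause was not tested. Chromosomes 2 and 4 remained the lowest, at -0.21 and -0.18.

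**Figure D5:**
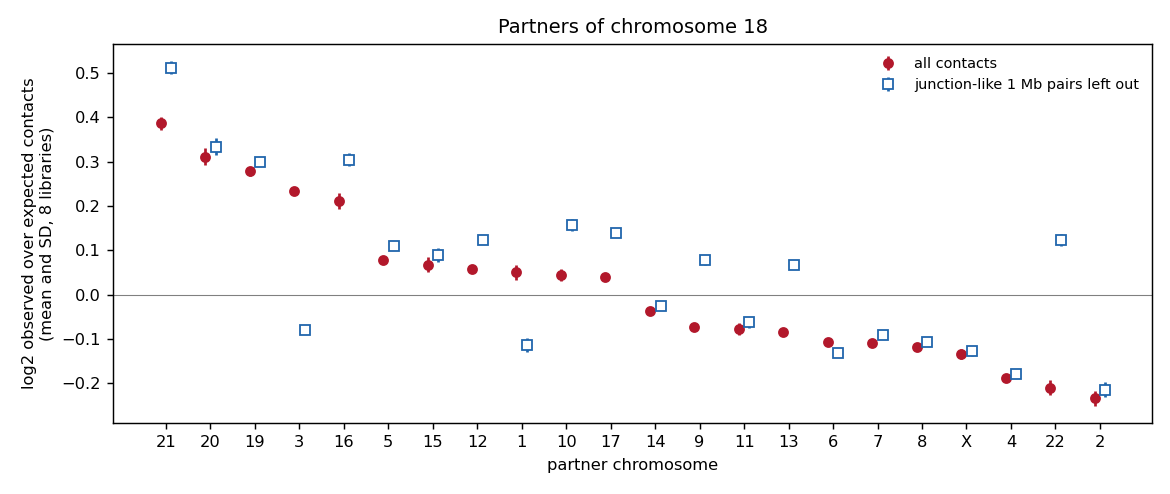
Log2 observed over expected contacts (vertical axis, mean with 1 SD over 8 libraries) of chromosome 18 with each of 22 partner chromosomes, ordered by the value over all contacts (filled) and with junction-like 1 Mb pairs left out (open). Chromosome 21 is highest in both, and chromosomes 3, 1, 22, 9 and 13 change sign.

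Set against chromosomes 17, 19 and 20, chromosome 18 was lower with some partners and higher with others. Partners 2, 4, 21 and 22 were named for the values of chromosome 18 itself in these libraries, so the differences are a description on the log2 scale of observed over expected contacts, with no test. With partners 17, 19, 20 and 22 chromosome 18 was lower in 8 of 8 libraries than each chromosome compared with it there. With chromosome 19 it stood below chromosome 17, which met that partner at 0.85 ± 0.052, by a difference of -0.57 ± 0.050, or -0.62 ± 0.052 with junction-like pairs left out. With chromosome 20 it stood below chromosome 19, at 0.64 ± 0.035, by -0.33 ± 0.033, or -0.33 ± 0.029 without the pairs (SD, n = 8). With chromosome 22 the difference from chromosome 17 was -1.01 ± 0.037 with the pairs and -0.82 ± 0.039 without them, while chromosome 18 itself stood at -0.21 and 0.12. With partners 2 and 4 chromosome 18 was higher in 8 of 8 libraries, for example by 0.24 ± 0.025 over chromosome 19 with partner 4. With partner 21 it was higher than chromosome 17 by 0.28 ± 0.027, and its difference from chromosome 20 was -0.026 ± 0.021. From chromosome 19 it differed there by -0.07 ± 0.034, and without the pairs by -0.0079 ± 0.020, lower in 6 of 8 libraries.

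The partners differed along chromosome 18. With junction-like pairs left out, the proximal side met chromosome 19 at 0.40 ± 0.010 and the distal side at 0.08 ± 0.019, a difference of 0.32 ± 0.021 (SD, n = 8). For chromosome 21 the values were 0.60 ± 0.018 and 0.31 ± 0.023, and for chromosome 20 0.39 ± 0.024 and 0.21 ± 0.018. Chromosome 14 went the other way, with -0.08 ± 0.013 proximal and 0.08 ± 0.017 distal. The difference had one sign in 8 of 8 libraries for every partner but chromosome 12. The proximal side also had more trans contacts, 22.5% ± 1.67 of its contacts against 20.3% ± 1.48, higher by 2.25 points ± 0.21 in 8 of 8 libraries. With the split at 37.5 Mb the gap was 3.12 ± 0.31, and at 12.9 Mb it was 4.92 ± 0.61, so its size rests on the split. The short arm stood at 25.8% ± 1.99 and the long arm from the gap to the step at 20.5% ± 1.43 (SD, n = 8).

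Class 1 bins of chromosome 18 met gene-rich chromosomes more than class 2 bins did. These values include junction-like pairs. The sign of the classes was set by contacts with chromosomes 17, 19 and 22 over those with chromosomes 4 and 13. The values are therefore a description, also for chromosome 13. The difference between classes was 1.05 ± 0.079 with chromosome 22, 0.65 ± 0.044 with chromosome 17, 0.40 ± 0.028 with chromosome 16 and 0.40 ± 0.053 with chromosome 19 on the log2 scale (SD, n = 8). Class 2 bins exceeded class 1 bins with chromosome 13 by 0.34 ± 0.038 and with chromosome X by 0.30 ± 0.037. With chromosome 21 the classes stood at 0.39 ± 0.022 and 0.38 ± 0.017, a difference of 0.012 ± 0.029.

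Partner preferences of chromosome 18 moved little with digestion. Rises were called with chromosomes 16, from 0.20 ± 0.0066 at 0.25 h to 0.24 ± 0.0013 at 12 h, and 10, from 0.03 ± 0.0036 to 0.06 ± 0.0021 (SD, n = 2; rho 0.88 for both, exact permutation p = 0.0103, 0.0493 adjusted over all pairs of chromosomes, n = 8). A fall was called with chromosome 2, from -0.22 ± 0.0068 to -0.26 ± 0.0060 (SD, n = 2; rho -0.93, exact permutation p = 0.00317, 0.0277 adjusted, n = 8). Over all pairs of chromosomes, 9.88% were called rising and 11.1% falling, so 2 and 1 of 22 partners lay near the background. With times permuted within replicate numbers chromosome 2 alone was called (adjusted exact permutation p = 0.0338; 0.0764 for chromosomes 16 and 10). Without 0.25 h replicate 2, without 3 h replicate 1 or without either 12 h library 0 of the 22 were called, and in the first run 0 were called.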

How the data were processed

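Per the submitters' processing notes, reads were mapped to hg19 with Bowtie2 2.3.4.1 and turned into contact matrices with HiC-Pro 2.11.1. The authors deposited balanced matrices, whose values are a signal per pair of bins, of 20 kb in the second run and 50 kb in the first. Dividing out the balancing gave whole contacts (within 0.01), whose totals equalled the deposited signal totals. All results use these contacts, except where the deposited signal is named.

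Trends are Spearman correlations with log2 hours, tested exactly over 2520 arrangements of times, with Benjamini-Hochberg adjustment over 23 chromosomes; differences between chromosomes were tested by exact sign flips over 8 libraries. Bins were compared with limma 3.58.1 in R 4.3.3, all 4 times in one fit. Coverage was log2 CPM, off-diagonal contacts scaled to their sum over all tested bins (prior count 0.5, bins with a mean of at least 100 contacts). The self share was compared as log2 odds of self contacts (pseudocount 0.5). The scripts were tested on simulated data. Named bins were the 5 largest rises and falls in coverage and the 3 in self share among called bins without overlap; named partners were the 3 highest, the 3 lowest and chromosomes 17, 19 and 20. The labels do not pair libraries by replicate number, and replicate 1 was the deeper library at every time. Deviations of same-numbered libraries in coverage correlated at 0.255 to 0.521 over 6 pairs, and a replicate block was run as an alternative. That correlation was 0.0141 to 0.127 for the self share.

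The members and lists were chosen with earlier results of these data known. The coverage split, of which 3 rules were tried, the junction thresholds, the distance classes, the balancing of compartment matrices and the alternative eigenvector were chosen after these files had been examined. Gene names are not given for bins, because the annotation used here is of another build.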

Additional observations from a re-analysis of the deposited data

How the results depend on the processing

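Of 590 alternatives over 46 results, 509 kept direction and side of the threshold or, for counts and values with no test, stayed within 1.5 times or 1 SD, 25 reversed, 17 were weaker, 9 stronger and 30 moved, and 21 results did so throughout. Values are rho for trends. The causes were not tested. With contacts inside a bin left out, the cis share trend was -0.73, and the trends of the differences from chromosomes 17, 19 and 20 were -0.44, -0.88 and -0.88, the last 2 past the threshold. With the deposited signal these 3 were 0.78, 0.44 and 0.83, the first and last past it, and the call against chromosome 19 lost. With the replicate block that of chromosome 17 was 0.73, now past the threshold. Leaving out 1 library gave 0.61 to 0.92 for chromosome 17 and -0.24 to 0.35 for chromosome 20. The short-range trend was -0.44 under 200 kb and -0.037 to 0.64 without 1 library. For the decay slope from 1 to 30 Mb, the trend was 0.78, the trends of the differences were -0.68, -0.88 and -0.93, the last 2 past the threshold, and the difference from chromosome 20 was 0.053. In the first run the trends of the differences from chromosomes 17 and 20 were 0.73 and 0.88, and both calls were lost (0.241 and 0.218 adjusted). Without 1 library the trend of the difference from chromosome 19 ran from -0.75 to 0.018, that from chromosome 20 from 0.83 to 0.92, and the difference from chromosome 20 from -0.0077 (past the threshold without 12 h replicate 1) to -0.0042.

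For compartment strength in the first run, the trend was 0.54, the difference from chromosome 17 -0.118 (call lost, 0.253 adjusted) with trend -0.83, and the trend against chromosome 20 -0.49 (call lost). With both runs added the trends against chromosomes 17 and 20 were -0.24 and -0.73, and thinned to equal depth the latter was -0.78; both values for chromosome 20 lost their call. With all bins of each class the difference from chromosome 19 was -0.0229 with trend -0.78, the trend against chromosome 20 -0.59 (call lost), and the difference from chromosome 20 -0.0300. In smaller bins the difference from chromosome 17 was 0.177 with trend -0.20, and from chromosome 19 0.170. Not balanced, the difference from chromosome 17 was 0.397 with trend -0.59, and from chromosome 19 -0.906. With the best-matched eigenvector the difference from chromosome 17 was -0.0690 with trend 0.83, the trend now past the threshold. Without 1 library the trend against chromosome 17 ran from -0.037 to 0.64, the difference from chromosome 19 from 0.0806 to 0.141, and the trend against chromosome 20 from -0.92 to -0.75.

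The partner value of chromosome 17 was -0.037 with the product of totals and -0.049 with the deposited signal, and that of chromosome 22 0.12 with junction-like pairs left out. Of 22 partner trends 3 were called, but 1 with junction-like pairs left out, 0 in the first run, 1 with both runs added, 1 with the replicate block and 0 to 4 without 1 library. The 380 coverage calls became 173 with trans contacts only, 176 in the first run and 246 to 385 without 1 library. With the replicate block 447 coverage bins and 2470 self-share bins were called, in place of 380 and 2462. Over all bins 72.7% and 65.5% were called with the block, in place of 65.1% and 64.7%. With a pseudocount of 5 the self-share bins called were 2945, all higher at 0.25 h, beside 79.0% of all bins called. The first run, at 8918994 to 20237350 contacts per library, limits what it can show. Counts of contacts cover no error beyond these libraries.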
